A study of Mus musculus with 6 samples.

Results

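Immunoglobulin kappa V segments are the genes that encode most of the variable part of the kappa light chain of antibodies. They were taken as all genes whose symbol begins with Igkv and whose GENCODE biotype is IG_V_gene, which gave 100 of the 54532 genes in the files, in 20 V families (the first number of the symbol). All 100 lie on chromosome 6 (GRCm38). RNA was measured in 6 libraries of mouse bone marrow LSK cells, the lineage-negative, Sca-1-positive and c-Kit-positive gate that is enriched for blood stem cells and multipotent progenitors. The 3 floxed libraries had the genotype Phf6fl-R274X/Y, and the 3 Vav1-Cre libraries had the genotype Vav1-Cre; Phf6fl-R274X/Y. All 6 thus carried the floxed R274X allele (a stop codon in place of an arginine) of the X-linked gene Phf6 over a Y chromosome, and only the second group carried Cre, which the Vav1 promoter drives in blood cells. No library with Cre and without the mutant allele is among the samples used here, so Cre and the mutation cannot be told apart. The sources used here give neither the ages of the mice nor whether the libraries of a group came from separate animals. The p-values reflect only how far these libraries scatter, and that scatter may be technical. The study asked how the mutation bears on blood stem cells, and the question here is how the kappa V segments were represented in the 2 groups.

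As background, a B cell makes a kappa chain by joining 1 V segment to 1 J segment of the Igk locus. RAG1 and RAG2 cut the DNA beside both segments, and the joined VJ exon is spliced in the RNA to the constant region Igkc. A V segment on the same strand as Igkc is joined by deletion of the DNA in between, and a V segment on the opposite strand is joined by inversion. Each B cell clone and its plasma cells thus mostly use a single kappa V segment, and plasma cells hold very large amounts of that RNA. A read count on a V segment does not tell a rearranged transcript from a germline one, nor many cells from a few with much RNA.

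The last 300 bases of the germline coding sequence are shown for 5 members. Of these, 4 had the highest mean level over all libraries, and Igkv16-104 is the neighbour of the first, Igkv15-103. The sequences are the spliced coding part of the GENCODE M21 transcripts, 5′ to 3′ on the coding strand. Capitals mark the last in-frame cysteine codon and the bases after it, the germline start of the third complementarity-determining region, to which the J segment is joined.
Igkv15-103: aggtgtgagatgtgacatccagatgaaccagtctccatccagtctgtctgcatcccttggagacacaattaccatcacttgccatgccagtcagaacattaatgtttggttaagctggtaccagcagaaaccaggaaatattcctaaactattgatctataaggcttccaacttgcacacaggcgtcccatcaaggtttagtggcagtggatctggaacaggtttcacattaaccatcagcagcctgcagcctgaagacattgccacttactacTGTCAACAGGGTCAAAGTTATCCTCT
Igkv16-104: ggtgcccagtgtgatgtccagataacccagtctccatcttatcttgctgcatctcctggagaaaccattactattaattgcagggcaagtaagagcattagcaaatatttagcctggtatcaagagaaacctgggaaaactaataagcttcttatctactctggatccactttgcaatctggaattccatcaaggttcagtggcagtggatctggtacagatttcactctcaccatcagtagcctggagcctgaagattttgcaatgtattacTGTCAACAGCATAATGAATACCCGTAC
Igkv1-88: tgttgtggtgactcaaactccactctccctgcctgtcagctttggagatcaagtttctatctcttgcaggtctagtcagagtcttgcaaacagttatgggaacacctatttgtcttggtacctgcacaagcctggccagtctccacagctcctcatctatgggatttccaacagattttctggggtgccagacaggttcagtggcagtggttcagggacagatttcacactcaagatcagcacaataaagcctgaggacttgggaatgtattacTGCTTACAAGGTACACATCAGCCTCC
Igkv5-39: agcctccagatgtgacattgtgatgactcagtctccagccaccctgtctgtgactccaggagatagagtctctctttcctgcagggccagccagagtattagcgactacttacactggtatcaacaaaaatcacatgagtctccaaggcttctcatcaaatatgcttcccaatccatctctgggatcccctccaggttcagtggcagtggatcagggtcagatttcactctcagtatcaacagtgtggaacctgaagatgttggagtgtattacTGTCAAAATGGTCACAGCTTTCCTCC
Igkv14-126: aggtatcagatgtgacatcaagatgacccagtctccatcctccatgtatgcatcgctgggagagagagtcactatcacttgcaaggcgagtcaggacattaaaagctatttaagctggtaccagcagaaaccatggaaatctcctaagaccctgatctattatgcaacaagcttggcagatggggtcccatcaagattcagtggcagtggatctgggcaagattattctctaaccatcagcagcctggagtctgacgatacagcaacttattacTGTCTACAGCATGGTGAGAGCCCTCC
Igkv15-103 lies at chr6:68437440-68437925 on the plus strand and Igkv16-104 at chr6:68425575-68426072 on the plus strand, 11.9 kb apart. Igkv1-88 lies at chr6:68862265-68863031 on the minus strand, Igkv5-39 at chr6:69900424-69900977 on the minus strand, and Igkv14-126 at chr6:67896172-67896642 on the plus strand. These coordinates span the exons and the introns between them. After the last cysteine codon, 67 of the 100 members have 23 bases, among them 4 of these 5, and Igkv16-104 has 24. The last 5 letters are CCTCC in 42 members, among them Igkv1-88, Igkv5-39 and Igkv14-126 and neither Igkv15-103 nor Igkv16-104. Coding lengths over the 100 members ran from 338 to 371 bases.

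Members resemble each other, and this limits how surely a read belongs to one of them. Within a family the coding sequences were 72.7% to 98.6% identical (median 89.0%, 532 pairs), and between families 53.6% to 81.9% (median 63.9%, 4418 pairs). A closest relative over 95% identical was found for 46 of the 100 members. All stretches of 50 bases were unique among the members for 26 of them, including the 5 printed above. Those 26 held 60.0% to 74.6% of the kappa V counts of every library. The sources used here do not say how reads that fit several segments were treated.

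Total counts were 15406314 to 18106065 per library. Phf6 itself (chrX:52912266-52956943), the gene of a nuclear protein with PHD fingers, measured 31.7, 29.5 and 33.5 CPM (counts scaled to library size) in the floxed libraries. It measured 8.46, 10.2 and 8.28 CPM in the Vav1-Cre libraries, so the groups did not overlap. It fell 3.51-fold (log2 fold change -1.81, SE 0.123, edgeR adjusted p = 6.67e-06). The defining genes of the gate were present in all libraries, with Kit at 158 ± 12.8 and 96.5 ± 14.8 CPM and Ly6a (Sca-1) at 141 ± 5.06 and 247 ± 15.6 CPM (SD, n = 3 each).

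Kappa V segments took a larger share of the Vav1-Cre libraries. They held 0.139%, 0.0518% and 0.267% of all counts in floxed 1, 2 and 3, from 25247, 8918 and 47216 counts. They held 1.63%, 1.88% and 1.03% in Vav1-Cre 1, 2 and 3, from 276188, 302003 and 158896 counts. Every Vav1-Cre library lay above every floxed one. The means were 0.153 ± 0.108% and 1.52 ± 0.436% (SD, n = 3 each), and their ratio was 9.92 (p = 0.1 by exact two-sided permutation, the lowest that 3 against 3 libraries allow). The 95% Wilson intervals of these shares were at most 0.0133 percentage points wide and cover counting error only. The ratio was 15.8 without floxed 3, the highest floxed library, and 7.46 without floxed 2, the lowest. In bulk RNA, fewer cells of a type and less RNA per cell cannot be told apart.

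**Figure D1:**
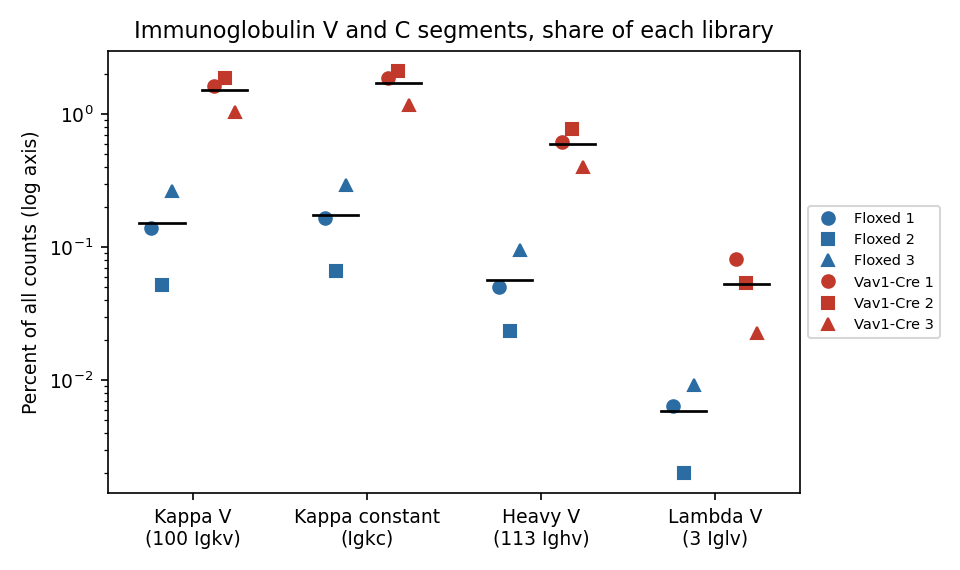
Percent of all counts (log axis) on the 100 kappa V segments, the kappa constant region Igkc, 113 heavy chain V segments and 3 lambda V segments. Each point is 1 library, blue floxed and red Vav1-Cre, and bars are group means; in each class the 3 red points lie above the 3 blue points, for kappa V at 1.03% or more against 0.267% or less.

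The kappa constant region, the heavy chain V segments and the lambda V segments also lay higher in every Vav1-Cre library than in any floxed one. Igkc (chr6:70726435-70726966), the constant region of the kappa chain, rose 10.9-fold in CPM (log2 fold change 3.45, SE 0.716, edgeR adjusted p = 0.0456). For each Igkc count there were 0.839, 0.778 and 0.904 kappa V counts in the floxed libraries and 0.878, 0.888 and 0.877 in the Vav1-Cre libraries (exact permutation p = 0.4). For each heavy chain V count there were 2.76, 2.20 and 2.79 kappa V counts in the floxed libraries and 2.65, 2.43 and 2.59 in the Vav1-Cre libraries (exact permutation p = 1). These ratios overlapped between the groups. The ratio to lambda V counts overlapped as well, at 21.7, 25.8 and 28.7 against 20.1, 34.8 and 45.1 (exact permutation p = 0.4). Of all immunoglobulin counts, kappa V segments held 21.5%, 17.7% and 22.7% in the floxed and 23.9%, 23.6% and 23.2% in the Vav1-Cre libraries. That share did not overlap between the groups (exact permutation p = 0.1, the smallest possible). The 60 kappa V pseudogenes held 3 to 4 counts in each floxed library and 10 to 57 in each Vav1-Cre library. Of the J segments, which are only 38 to 43 bases long, Igkj2 rose from 2, 1 and 3 counts to 33, 89 and 11 (log2 fold change 4.68, edgeR adjusted p = 0.0104). Igkj1, Igkj4 and Igkj5 did not pass (adjusted p = 0.334, 0.192 and 0.0969), and Igkj3 had too few counts to be tested.

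Igkv15-103 was the member with the highest level over all libraries, and it led 3 of the 6. It held 11039, 3321 and 11526 counts in the floxed libraries and 56318, 42935 and 23454 in the Vav1-Cre libraries. Its level was 460.4 ± 245 CPM in the floxed and 2680.1 ± 1044 CPM in the Vav1-Cre libraries (SD, n = 3 each), with no overlap between the groups (log2 fold change 2.54, SE 0.664, edgeR adjusted p = 0.0769). As a share of the kappa V counts it was 43.7%, 37.2% and 24.4% in the floxed libraries and 20.4%, 14.2% and 14.8% in the Vav1-Cre libraries. More of it and a smaller share of it were thus measured in the same libraries, since the other members together differed more.

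Igkv16-104, its neighbour in the locus, differed strongly among libraries of each group. It had 707, 2372 and 16663 counts in the floxed libraries and 396, 629 and 5498 in the Vav1-Cre libraries. It was the leading member of floxed 3, with 35.3% of the kappa V counts, and held 2.80% in floxed 1. In the Vav1-Cre libraries it held 0.143%, 0.208% and 3.46%. It did not pass the test (log2 fold change -1.29, SE 1.73, edgeR adjusted p = 0.671), and the sign turned without floxed 3 (log2 fold change 0.82). Igkv15-103 and Igkv16-104 together held 46.5%, 63.8% and 59.7% of the floxed kappa V counts and 20.5%, 14.4% and 18.2% of the Vav1-Cre ones.

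Igkv1-88 led Vav1-Cre 1 and was, like Igkv15-103, among the first 3 members of every Vav1-Cre library. It had 512, 102 and 438 counts in the floxed libraries and 56476, 41727 and 20311 in the Vav1-Cre libraries, and the groups were far apart. With 18.7 ± 11.6 CPM in the floxed and 2587 ± 1155 CPM in the Vav1-Cre libraries (SD, n = 3 each), it rose 138-fold (log2 fold change 7.11, SE 0.942, edgeR adjusted p = 0.0157). Its share of the kappa V counts was 2.03%, 1.14% and 0.928% in the floxed libraries and 20.4%, 13.8% and 12.8% in the Vav1-Cre libraries. Adjusted p was 0.0596 to 0.064 when floxed 1, floxed 3, Vav1-Cre 1 or Vav1-Cre 2 was left out.

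Igkv5-39 had 922, 52 and 684 counts against 21605, 47973 and 16894, a 64.5-fold difference of means in CPM (edgeR adjusted p = 0.0515). It was the leading member of Vav1-Cre 2, with 15.9% of the kappa V counts. Igkv14-126 had 1705, 412 and 3817 counts against 32985, 31598 and 12876, and was among the first 3 members of all floxed libraries and of Vav1-Cre 1 (adjusted p = 0.0763). Igkv19-93 was 27.0-fold higher in mean CPM (adjusted p = 0.0551). The groups did not overlap for these 3 members, and none of them passed the threshold. Igkv10-96 rose 28.2-fold, from 516, 296 and 723 counts to 9133, 6747 and 19155 (log2 fold change 4.82, adjusted p = 0.0181), with its highest level in Vav1-Cre 3.

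Per length, in the deposited FPKM, the order at the top was Igkv15-103 (1221 ± 654), Igkv16-104 (932 ± 1247) and Igkv14-126 (294 ± 259) in the floxed libraries. In the Vav1-Cre libraries it was Igkv15-103 (7132 ± 2766), Igkv1-88 (7130.4 ± 3172), Igkv5-39 (5459 ± 3188), Igkv14-126 (4718 ± 2004) and Igkv19-93 (2498 ± 806; SD, n = 3 each). Neighbours in either order differed by less than their spread, apart from Igkv14-126 and Igkv19-93 in the Vav1-Cre libraries, whose means lay farther apart than the larger SD.

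Some members were high in a single library. Igkv3-4 had 0, 0 and 6 counts in the floxed libraries and 1315, 31929 and 1675 in the Vav1-Cre libraries, so that Vav1-Cre 2 held most of its counts (log2 fold change 12.72, edgeR adjusted p = 0.055). Igkv4-69 had no count in any floxed library and 174, 134 and 8822 in the Vav1-Cre libraries, most of them in Vav1-Cre 3 (adjusted p = 0.307). Its share of the kappa V counts was 0.063% and 0.0444% in Vav1-Cre 1 and 2 and 5.55% in Vav1-Cre 3. Igkv3-2, the member second nearest to the J segments, had 1504 of its counts in floxed 1 and 142 and 538 in the other floxed libraries.

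**Figure D2:**
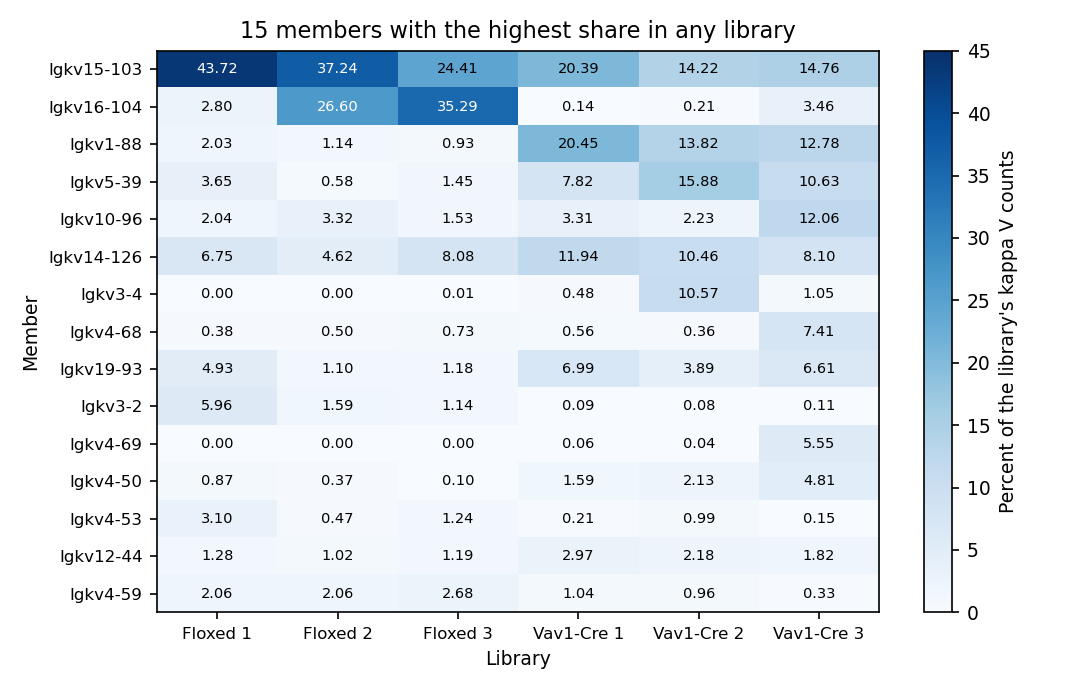
Share of each library's kappa V counts (percent, colour and number) for the 15 members with the highest share in any library; rows are members and columns are libraries. Igkv15-103 and Igkv16-104 carry the darkest floxed cells, and in the Vav1-Cre columns Igkv15-103, Igkv1-88, Igkv5-39 and Igkv14-126 each hold 7.82% or more.

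Over the whole family of segments, 4 of the 100 members had no count in any library (Igkv1-35, Igkv1-131, Igkv4-54 and Igkv8-26). A further 20 had counts and were too low to be tested, and 76 passed the filter on low counts. Of these 76, 14 rose in the Vav1-Cre libraries, none fell, and 62 did not pass (edgeR's quasi-likelihood test, adjusted p under 0.05 over 14608 genes). Among all tested genes 10.1% rose and 7.89% fell. At an unadjusted p under 0.05, 37 members were higher and 0 lower. The share of all tested genes at that unadjusted threshold was not computed, and the 2 shares above do not apply to it. The median log2 fold change of the 76 was 4.0, against -0.02 for all tested genes, and it was the same with the members that had no floxed count at their lower bound. Members that were low in the floxed libraries reached the filter through the Vav1-Cre libraries, so the counts over the 76 describe them and support nothing more. The number of calls depended on the test: 43 of 83 members rose with DESeq2, where 10.9% of all genes rose, and 46 of 76 with edgeR's robust option off, where 9.47% rose. It also depended on single libraries, with 6 higher without floxed 1 (of all tested genes 5.61%), 8 without floxed 2 (4.56%), 10 without floxed 3 (7.71%), 6 without Vav1-Cre 1 (4.73%), 9 without Vav1-Cre 2 (5.14%) and 29 without Vav1-Cre 3 (12.5%).

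Without any test, the CPM of the groups were fully apart for 55 members that were higher and 1 that was lower in the Vav1-Cre libraries. Among the 25117 genes with any count, 12.9% did not overlap and were higher and 12% did not overlap and were lower. The other 44 members overlapped or had no count. Of the 26 members with only unique 50-base stretches, 15 were higher without overlap and 5 of 18 tested rose. Of the other 74, 40 were higher without overlap, 1 was lower, and 9 of 58 tested rose.

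The 14 that rose belonged to 10 families. The log2 fold changes were 2.79 to 7.76 for 12 of them, and the other two, Igkv8-18 and Igkv12-38, had no floxed count. From family 12 came Igkv12-38, Igkv12-41, Igkv12-44 and Igkv12-98, and from family 6 Igkv6-14 and Igkv6-32. The others were Igkv1-88, Igkv2-109, Igkv3-5, Igkv4-50, Igkv8-18, Igkv9-120, Igkv10-96 and Igkv17-121. Igkv6-14 had the smallest p, with 0, 0 and 4 counts in the floxed libraries and 174, 142 and 83 in the Vav1-Cre libraries (log2 fold change 6.80, SE 0.659, edgeR adjusted p = 0.000473). Igkv6-32 had 39, 33 and 30 counts against 7235, 5384 and 840, with floxed values close together and the Vav1-Cre ones spread widely (162-fold, adjusted p = 0.0243). Igkv12-98 had 34, 0 and 0 counts against 1540, 1917 and 2560 (adjusted p = 0.0142). Igkv4-50, the most abundant member of the largest family, had 5.27 ± 5.52 and 407 ± 114 CPM (SD, n = 3 each, adjusted p = 0.02). Igkv2-109 had 3.38, 1.02 and 3.76 CPM in the floxed libraries and 21.8, 19.4 and 28.4 CPM in the Vav1-Cre libraries (adjusted p = 0.0137). Whichever library was left out, 3 of the 14 stayed past the threshold: Igkv6-14, Igkv8-18 and Igkv12-38.

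No floxed library had a count for 22 members that had counts in the Vav1-Cre group, and 13 of these had 100 or more there. Igkv8-18 had 538, 269 and 265 counts in the Vav1-Cre libraries and was at least 440.4-fold higher, against a floor of 3 counts over the floxed group (edgeR adjusted p = 0.011). Igkv12-38 had 65, 33 and 16 counts and was at least 46.8-fold higher (adjusted p = 0.00201). Igkv4-51 had 1834, 1052 and 324 counts (at least 1319-fold, adjusted p = 0.102), and Igkv1-99 had 692, 398 and 130 (at least 501-fold, adjusted p = 0.106). Igkv4-58, Igkv4-63, Igkv8-28, Igkv14-130 and Igkv2-112 also had counts in all 3 Vav1-Cre libraries, with adjusted p of 0.0831 to 0.195. Igkv4-72, Igkv4-78 and Igkv4-86 had 2 or fewer counts in 1 Vav1-Cre library and were not tested. With 8918 to 47216 kappa V counts, the floxed libraries could show a rare segment less well than the Vav1-Cre libraries did. At an equal 8918 kappa V counts a library, the expected number of members (hypergeometric) was 55.7, 53 and 63.0 in the floxed libraries and 79.1, 80.3 and 71.2 in the Vav1-Cre libraries (exact permutation p = 0.1, the smallest possible). At full depth 58, 53 and 66 members had counts in the floxed libraries and 87, 90 and 81 in the Vav1-Cre libraries.

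Mean CPM was lower in the Vav1-Cre libraries for 10 members, of which 5 were tested and none passed. Besides Igkv16-104 these 5 were Igkv3-2, Igkv3-7, Igkv3-10 and Igkv10-95. Igkv3-7 was the member whose values were lower without overlap, with 122, 64 and 181 counts in the floxed libraries and 41, 0 and 0 in the Vav1-Cre libraries (log2 fold change -2.86, SE 1.40, edgeR adjusted p = 0.254). Without Vav1-Cre 1, where it had its 41 counts, it had no Vav1-Cre count and passed the test (adjusted p = 0.00964; 3.37% of all genes fell there). Igkv3-2 went from 79.5, 7.60 and 28.9 CPM to 15.5, 15.6 and 11.9 CPM (adjusted p = 0.377). Igkv10-95 had 0, 1.23 and 19.0 CPM against 4.59, 7.40 and 0.267 CPM (adjusted p = 0.834), and its sign turned without floxed 3 and with limma-voom.

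Near-identical members did not always have the same pattern. Igkv3-5 and Igkv3-10 are 359 bases long and 98.3% identical in coding sequence, with 6 substitutions and no gap. The last 300 bases are shown, with the 6 positions at which they differ in capitals.
Igkv3-5: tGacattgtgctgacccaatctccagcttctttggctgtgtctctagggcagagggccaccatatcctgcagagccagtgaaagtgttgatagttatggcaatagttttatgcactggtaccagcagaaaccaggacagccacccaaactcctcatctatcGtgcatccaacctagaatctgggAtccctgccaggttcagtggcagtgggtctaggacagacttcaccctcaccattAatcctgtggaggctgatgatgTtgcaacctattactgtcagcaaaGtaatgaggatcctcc
Igkv3-10: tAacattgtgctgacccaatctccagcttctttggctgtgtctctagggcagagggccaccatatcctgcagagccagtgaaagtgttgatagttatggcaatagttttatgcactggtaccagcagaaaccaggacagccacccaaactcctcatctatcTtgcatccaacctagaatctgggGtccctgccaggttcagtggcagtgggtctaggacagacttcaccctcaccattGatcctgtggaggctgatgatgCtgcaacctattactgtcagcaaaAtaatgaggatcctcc
Igkv3-5 (chr6:70663275-70663895, plus strand) had 58, 62 and 41 counts in the floxed libraries and 4231, 2111 and 647 in the Vav1-Cre libraries, and rose 53.1-fold (log2 fold change 5.73, SE 0.946, edgeR adjusted p = 0.0268). That call was lost with limma-voom (adjusted p = 0.157) and when any library but Vav1-Cre 3 was left out. Igkv3-10 (chr6:70572633-70573230, plus strand) had 502, 69 and 918 counts against 172, 258 and 64, which overlapped (log2 fold change -1.29, adjusted p = 0.492). The difference between the 2 members was not tested. Of their 50-base stretches 47.4% and 46.5% were unique among the members, so part of the reads of either could have been assigned to the other. In the pair Igkv5-43 and Igkv5-45 (98.6% identical), Igkv5-43 had 2429, 1770 and 196 Vav1-Cre counts and Igkv5-45 had 281, 398 and 121, while in the floxed libraries Igkv5-43 had 112, 17 and 122 and Igkv5-45 had 0, 60 and 425. In the pair Igkv6-20 and Igkv6-29 (98.6%), Igkv6-20 was the more abundant wherever both had counts.

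By V family, the summed CPM did not overlap and were higher in the Vav1-Cre libraries for 14 of the 20 families and overlapped for 6. The ratio of mean CPM was 52.4 for family 1, whose most abundant member is Igkv1-88. It was 46.0 for family 5 with Igkv5-39, 26.1 for family 6 with Igkv6-32, and 6.67 for family 8 with Igkv8-30. Families 15 and 16, which consist of Igkv15-103 and Igkv16-104 alone, had ratios of 5.82 and 0.41. All 6 members of family 12 were higher without overlap, and 4 of them rose. Family 4, with 26 members the largest, had 13 members higher without overlap and 1 of 17 tested that rose, no more than the 10.1% of all tested genes. Over all genes with any count, 12.9% were higher without overlap.

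As shares of the kappa V counts, 3 families were higher without overlap, 2 were lower and 15 overlapped. Family 1 held 5.64%, 3.86% and 2.89% in the floxed libraries and 22.6%, 16.4% and 13.6% in the Vav1-Cre libraries. Family 5 held 4.38%, 2.11% and 2.79% against 9.52%, 17.7% and 11%. Family 12 held 2.99%, 2.96% and 3.56% against 5.85%, 4.22% and 4.28%. In all 3 the Vav1-Cre values lay above every floxed value. Family 8 was lower, at 3.08%, 2.29% and 2.24% against 1.22%, 1.90% and 1.22%, and so was family 15. Family 4 held 9.07%, 7.15% and 8.36% against 7.13%, 7.80% and 19.3%, so that Vav1-Cre 3 stood apart. Among single members, the share was higher without overlap for 24 and lower without overlap for 12. Shares of a single total depend on each other and have no counterpart over all genes, so these counts are a description only. With 3 libraries a group no single family could pass 0.05, so family shares are given without a test.

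**Figure D3:**
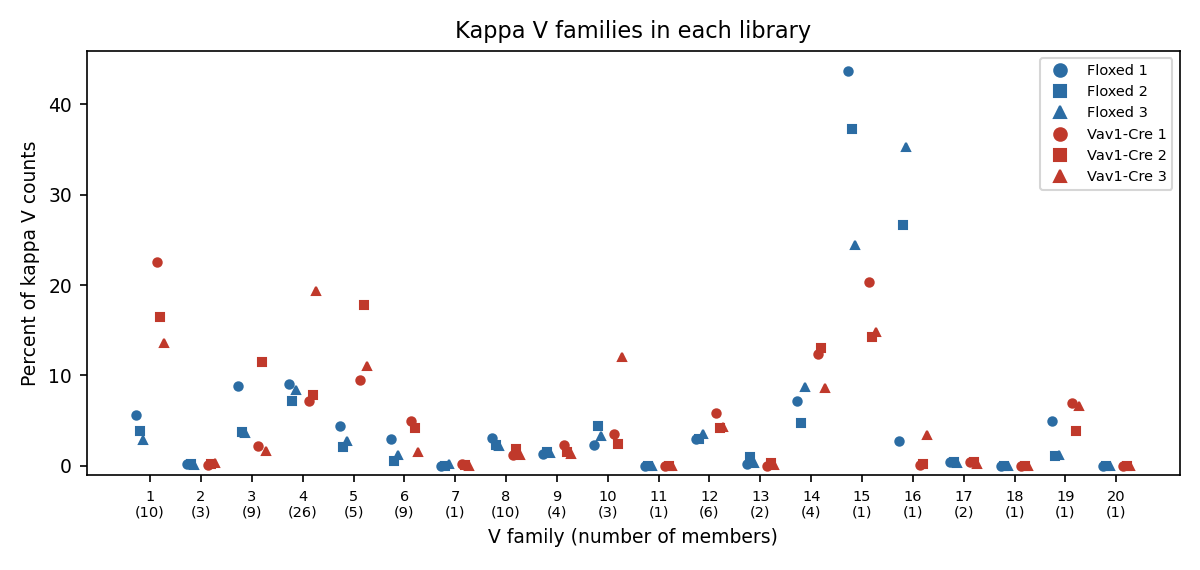
Percent of each library's kappa V counts in each of the 20 V families, with the number of members in parentheses; blue marks are floxed and red marks Vav1-Cre libraries. Families 15 and 16 reach 43.7% and 35.3% in floxed libraries, and families 1 and 5 have all 3 red marks above the blue ones.

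In the locus, the members lie 18.4 kb (Igkv3-1) to 3166 kb (Igkv2-137) from Igkj1, and 62 are on the strand opposite to Igkc. Orientation changes along the locus in 15 runs, the longest of 40 opposite-strand members. The 9 members of family 3 nearest to the J segments are all on the strand of Igkc, and the 26 of family 4, at 1021 to 1967 kb, are all on the opposite strand. The 50 members farther from the J segments held 70.2%, 83.9% and 80.9% of the kappa V counts in the floxed libraries and 72.6%, 55.2% and 76.4% in the Vav1-Cre libraries, which overlapped (exact permutation p = 0.3). Without Igkv15-103 and Igkv16-104 the difference turned, from 50.8 ± 5.78% to 61.5 ± 12.3% (SD, n = 3 each, exact permutation p = 0.3). These members were left out after seeing the data, so the values without them are a description only. At the ends, Igkv2-137, Igkv1-133, Igkv3-1 and Igkv3-3 had at most 3.30 CPM in any library, and Igkv1-135 had 18.6, 1.87 and 6.99 CPM in the floxed libraries and 103, 141 and 30.3 in the Vav1-Cre libraries.

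Opposite-strand members held 30.6%, 22.1% and 23.3% of the kappa V counts in the floxed libraries and 58.4%, 54.7% and 67.1% in the Vav1-Cre libraries. The groups were 34.7 percentage points apart and did not overlap (exact permutation p = 0.1, the smallest possible). The gap was 14.4 points without Igkv15-103 and Igkv16-104, at 57.2%, 61.2% and 57.9% against 73.5%, 63.9% and 82.0%. It was 28.1 points without Igkv1-88. These members were left out after seeing the data, so the smaller gaps follow in part from that choice and are a description only. In blocks of 10 members along the locus, the block from Igkv19-93 to Igkv16-104 held 54.1%, 69.4% and 64.5% in the floxed libraries and 32.0%, 23.3% and 38.8% in the Vav1-Cre libraries. The block with Igkv5-39 (13.8%, 20.6% and 13.3% against at most 6.93%) and the block with Igkv1-88 (21.8%, 15.2% and 13.6% against at most 4.31%) were higher without overlap, as was the block farthest from the J segments. The other 6 blocks overlapped.

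**Figure D4:**
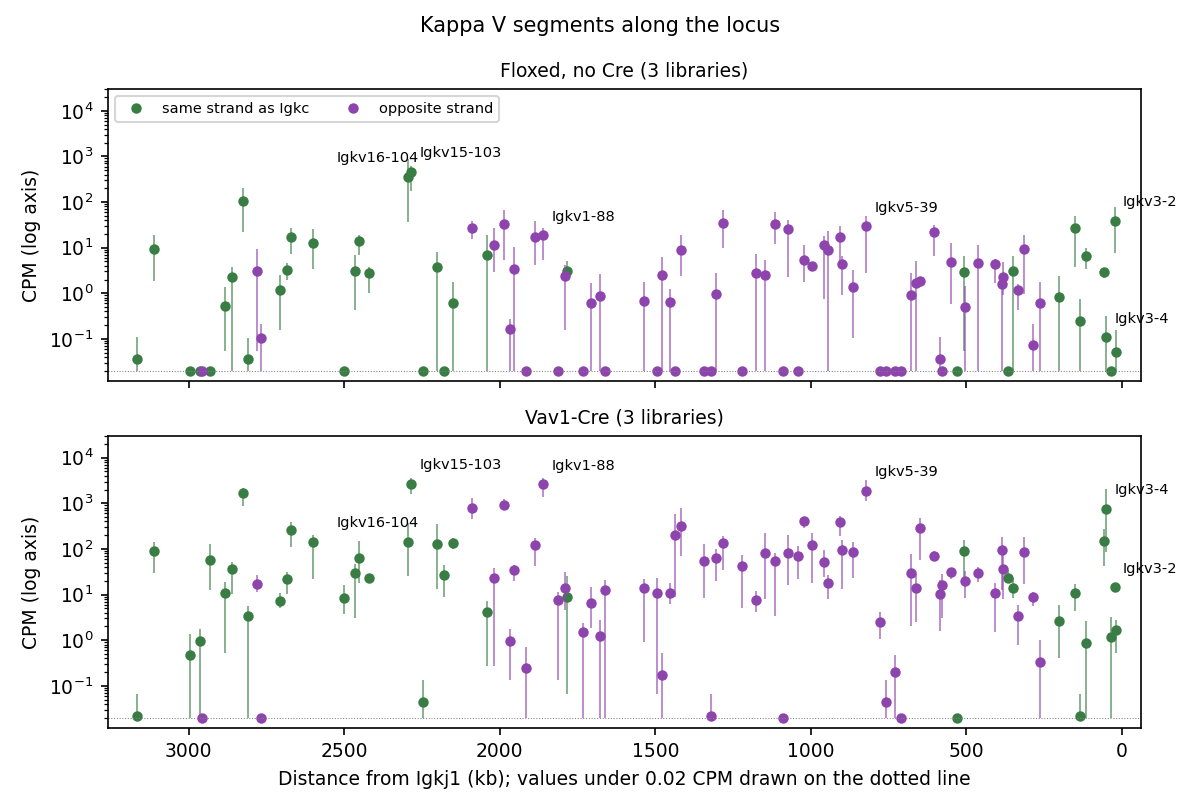
Mean CPM (log axis, points) and range over 3 libraries (lines) of each of the 100 kappa V segments against its distance from Igkj1 in kb, in the floxed libraries above and the Vav1-Cre libraries below; green is the strand of Igkc and purple the opposite strand. Counted segments span the whole 18.4 to 3166 kb in both groups, and Igkv1-88 and Igkv5-39 stand with Igkv15-103 at the top of the lower panel only.

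The kappa V counts were spread over few members in both groups. The effective number of segments, the inverse Simpson index (the number of equally used segments that would give the same concentration), was 4.79, 4.63 and 5.14 in the floxed libraries and 8.82, 10.9 and 11.4 in the Vav1-Cre libraries. The groups did not overlap (exact permutation p = 0.1, the smallest possible). The leading member held 43.7%, 37.2% and 35.3% against 20.4%, 15.9% and 14.8%. The first 5 members together held 65.0%, 74.3% and 72.9% against 67.6%, 65.0% and 58.3%, and overlapped (exact permutation p = 0.2). The order of the groups rested on the neighbours Igkv15-103 and Igkv16-104. Without Igkv15-103 the effective number was 18.1, 5.10 and 4.23 in the floxed libraries and 8.83, 10.3 and 11 in the Vav1-Cre libraries (exact permutation p = 1). Without both it was 17.1, 20.1 and 15.5 in the floxed libraries and 8.80, 10.3 and 10.3 in the Vav1-Cre libraries, which is the opposite order without overlap (exact permutation p = 0.1, the smallest possible). The first 5 of the remaining members then held 21.1 percentage points more of the counts in the Vav1-Cre libraries. Igkv15-103 and Igkv16-104 were left out after seeing the data, and together they held a larger share of the floxed counts. The values and p without them thus follow in part from that choice, and are a description only.

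**Figure D5:**
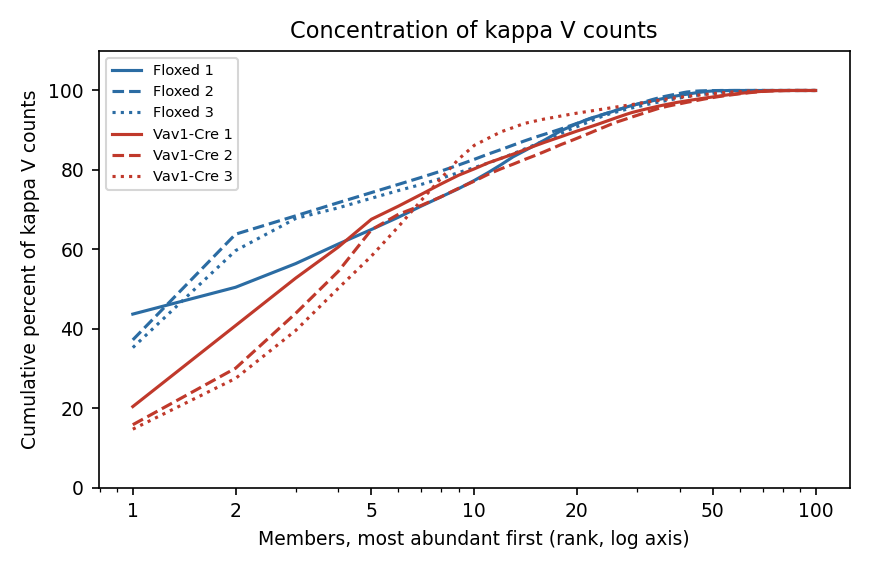
Cumulative percent of each library's kappa V counts against the rank of the member, most abundant first (log axis); blue lines are floxed and red lines Vav1-Cre libraries. The floxed lines start at 35.3% to 43.7% and the Vav1-Cre lines at 14.8% to 20.4%, and at 5 members they have come to 58.3% to 74.3%.

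Likeness between libraries is given as a description over 100 members that share library and depth. The share of the kappa V profile that 2 libraries had in common was 57.7% to 78.9% in the 3 floxed pairs, 66.3% to 73.5% in the 3 Vav1-Cre pairs, and 36.7% to 52.2% in the 9 pairs across groups. Spearman's rho of the shares was 0.74 to 0.83, 0.82 to 0.86 and 0.51 to 0.61. By Pearson's r the ranges met, at 0.61 to 0.93, 0.79 to 0.86 and 0.32 to 0.70. Without Igkv15-103, floxed 1 had 49.3% and 49.6% in common with floxed 2 and 3 and 53.7% with Vav1-Cre 1, so that floxed 1 was then no closer to its own group. The 113 heavy chain V segments gave 63.3% to 80.1%, 59.8% to 71.1% and 32.9% to 49.2%.

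Genes listed for B cells and plasma cells were measured beside the V segments. Among all tested genes 10.1% rose and 7.89% fell. Of 13 tested of 14 B cell genes, 10 rose and none fell (median log2 fold change 1.78). Their summed levels were 975 to 1309 CPM in the floxed and 1805 to 2712 CPM in the Vav1-Cre libraries. Blk, a kinase of B cells, had 6.39 ± 1.57 and 22.0 ± 6.70 CPM (SD, n = 3 each, edgeR adjusted p = 0.00451). Cd79a, Ebf1 and Fcer2a of this list did not pass (edgeR adjusted p = 0.0677, 0.0902 and 0.958). Of 15 plasma cell genes 12 rose and none fell (median log2 fold change 2.13), with sums of 546 to 1213 and 2761 to 5733 CPM. Xbp1, the secretory regulator of plasma cells, rose 2.44-fold (adjusted p = 0.000213), and Creld2 and Edem1, which act on proteins in the endoplasmic reticulum, rose 2.38-fold and 2.06-fold. Jchain, which links IgM and IgA subunits, had 240, 101 and 579 CPM against 3586, 3713 and 1476 CPM (adjusted p = 0.0813). Mzb1 and Tnfrsf17 of the plasma cell list did not pass either (edgeR adjusted p = 0.0629 and 0.0519). No gene of either list was at 0 in all libraries. With 1 library left out, 5 to 10 B cell genes and 5 to 12 plasma cell genes rose, where 4.56% to 12.5% of all tested genes rose. The part of these cells in the kappa V counts was not tested.

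Of 14 genes of pre-B cells and V(D)J joining, 2 rose and none fell (median log2 fold change 0.84), near the 10.1% of all tested genes that rose. They were Lig4, the ligase of the joining step, at 2.97 ± 1.25 and 9.05 ± 1.96 CPM (edgeR adjusted p = 0.00436; SD, n = 3 each), and Xrcc6, a Ku subunit (1.34-fold, adjusted p = 0.0454). Between 1 and 7 rose with 1 library left out, where 4.56% to 12.5% of all genes rose, and 8 with DESeq2, where 10.9% did. Vpreb1, a surrogate light chain part, had 97.5, 56.1 and 143 CPM against 643, 580 and 292 CPM (adjusted p = 0.0539). Rag1 had 11.4, 5.67 and 16.1 CPM against 41.6, 47.8 and 20.1 CPM, with no overlap (adjusted p = 0.116). Of 19 regulators of the kappa locus, 7 rose and 1 fell (median log2 fold change 0.24), where 7.89% of all tested genes fell. With 1 library left out, 3 to 9 of these regulators rose. Those that rose were Ikzf3, Tcf3 (E2A), Irf8, Irf4, Pax5, Spib and Pou2af1, and Rela, an NF-kB subunit, fell (0.84-fold, adjusted p = 0.0445). The call on Rela was lost with DESeq2, with RLE scaling, with the robust option off and when any library but Vav1-Cre 3 was left out. Irf4, which acts at the kappa enhancers and in plasma cells, had 6.87, 4.44 and 12.2 CPM against 46.4, 52.9 and 38.7 CPM (adjusted p = 0.0208). Irf4 and Pou2af1 are also in the plasma cell list, and Pax5 and Ebf1 in the B cell list.

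Genes of other cell types were measured too, where 10.1% of all tested genes rose and 7.89% fell. Of 8 macrophage genes 4 rose, with sums of 197 to 445 CPM in the floxed and 985 to 2135 CPM in the Vav1-Cre libraries, and 0 to 4 rose with 1 library left out. Of 9 T cell genes 7 rose (71.1 to 92.3 and 113 to 131 CPM), and of 8 erythroid genes 3 rose and 1 fell (1300 to 1638 and 2154 to 3465 CPM). With 1 library left out 4 to 7 T cell genes and 1 to 4 erythroid genes rose, and with DESeq2 8 macrophage and 6 erythroid genes. Of all tested genes, 4.56% to 12.5% rose with 1 library left out and 10.9% with DESeq2. None of 8 neutrophil genes passed with edgeR, where 0 were at an unadjusted p under 0.05, or with DESeq2 (17962 to 30193 and 13622 to 35918 CPM). Of the 10 LSK genes, Ly6a rose and 8 fell, with sums of 1767 to 1842 and 1284 to 1462 CPM. The part of these cell types in the kappa V values was not tested.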

How the data were processed

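Each Ensembl gene has, for every library, a read count in whole numbers and an FPKM, both deposited by the authors, per the file headers. The counts are not normalized. The authors' FPKM values are per length, and are used here for levels between members only. The submitters' processing notes list Bowtie and mm8, while 54409 of the 54532 gene identifiers matched GENCODE M21 (GRCm38), from which biotypes, coordinates and sequences were taken. The sources used here do not name the counting tool, its strand setting or its treatment of shared reads.

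Libraries were compared as 3 floxed against 3 Vav1-Cre, with edgeR 4.0.16 in R 4.3.3 (quasi-likelihood test, TMM scaling, robust option, default filter with a minimum count of 10, Benjamini-Hochberg over all tested genes, threshold 0.05). CPM are scaled with TMM factors. The test gives no SE, so the SE printed is the absolute log2 fold change over the square root of the test's F statistic. One value per library was compared by exact two-sided permutation (SciPy 1.17.1, smallest p 0.1). Sequences were aligned with edlib 1.3.9.post1. Alternatives were DESeq2 1.42.0, voom of limma 3.58.1, other scalings and filters, each library left out, and, chosen after seeing the data, Igkv15-103, Igkv16-104 and Igkv1-88 left out of the members. The scripts were tested on simulated counts with the same dispersion for all genes. That test does not cover members without counts in a group or with wide scatter among libraries. Replicates differed by more than counting error (chi-square per gene at least 12.05), so no library was counted double.

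The members, the 9 gene lists and the rule for named genes were chosen with earlier results of these data known. Named members were the 8 with the highest CPM, the first 3 of each library, the 8 smallest p, tested members with a negative fold change, the 3 with counts nearest to and the 3 farthest from the J segments, the first of each family of 3 or more members, those at 0 in all floxed libraries with 100 or more counts in the Vav1-Cre group, the 3 most similar pairs, and up to 4 genes a list. The remaining members and genes given by name were chosen after their values were seen. They are Igkv12-41, Igkv17-121, the 4 members without counts and Igkj3. From the lists they are Jchain, Mzb1, Tnfrsf17, Cd79a, Ebf1, Fcer2a, Rag1, Pax5, Spib, Pou2af1 and Rela.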

Additional observations from a re-analysis of the deposited data

How the results depend on the processing

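The number of kappa V segments called (14 higher, 0 lower) was 43 with DESeq2 and 46 with the robust option off, all higher in both, and stayed within 1.5 times of 14 with voom, RLE or upper-quartile scaling, no filter, a mean count of at least 50, and scaling without immunoglobulin genes. With 1 library left out it was 6 to 29 (6 to 29 higher, 0 to 1 lower), and all genes called were 1218 to 3295 against 2621. The ratio of kappa V shares was 7.46 to 15.8 with 1 library left out, and 18.7 without Igkv15-103 and Igkv16-104. The difference in kappa V counts per heavy chain V count (-0.03) lay between -0.22 and 0.0725 with 1 library left out. The difference in the share of the first 5 members (-7.11 percentage points) turned to 1.01 for the first 10, to 4.85 without Igkv15-103 and to 21.1 without it and Igkv16-104. Without both, the difference in effective number was -7.79 in place of 5.51 and that in the distal share 10.7 in place of -10.2; the cause was not tested. Of the named members' fold changes, 3 turned sign: Igkv10-95 with voom (log2 fold change 1.38) and without floxed 3 (2.71), and Igkv16-104 without floxed 3 (0.82). With 1 library left out their log2 fold changes ran from -1.46 to 2.71 and from -3.39 to 0.82. No other named member turned sign in any fit run. No paired analysis was possible because no label ties a floxed to a Vav1-Cre library, and the numbers 1 to 3 used here only name the libraries. Depth limits the floxed libraries most, where floxed 2 held 8918 kappa V counts.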
